A study of Mus musculus with 45 samples.

Results

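The striatum of heterozygous Shank3-mutant mice (Shank3-HT) was compared with that of wildtype mice (WT) by RNA sequencing, with 5 samples in each group. These 10 samples were taken from the 45 of the experiment by their tissue and genotype labels, and the gene-level test covered the 16482 genes whose normalized counts averaged 10 or more over all 15 striatum samples. All mice were male C57BL/6J mice of 13 weeks. The WT mice carried no mutant allele, the Shank3-HT mice carried 1 allele that lacks exons 14 to 16 of Shank3, and the 5 homozygous mice (Shank3-HM, named knock-out in the labels) carried this deletion on both alleles. The allele came from a single mouse line and is present in every cell, so that no cell type is targeted. The Shank3-HM samples entered the fit to share its estimate of the spread, and their values are set beside those of Shank3-HT mice where they bear on gene dosage. The values are normalized counts with decimals, whose sums were set by the normalization to between 2.82e+07 and 2.96e+07 per striatum sample, so that the sequencing depth behind each value is unknown. Since the labels name the samples only as replicates, p values measure the spread between these samples.

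Shank3 is a scaffold protein of the postsynaptic density of excitatory synapses. It holds glutamate receptors to the actin of the dendritic spine through Dlgap proteins, which its PDZ domain binds, and through Homer proteins. In the striatum it is the most prominent member of its family, and most neurons there are GABAergic spiny projection neurons, which fall into a direct pathway with D1 dopamine receptors and an indirect pathway with D2 receptors. Loss of 1 copy of SHANK3 in humans is part of Phelan-McDermid syndrome, so that the heterozygous state addresses the effect of gene dosage. Some lines of Shank3-mutant mice are known for repetitive grooming.

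The 3 deleted exons are shown because the genotype rests on them. Their numbers were taken to follow the transcript of Shank3 with 22 exons and 7365 nucleotides in the GENCODE annotation of GRCm38, in which they hold 341 nucleotides (4.63% of the length), which is not a multiple of 3. The capitals mark the codons of the loop of the PDZ domain that takes up the end of a bound partner protein. All 3 lie on the plus strand of chromosome 15, at chr15:89531626-89531708, chr15:89532095-89532219 and chr15:89532329-89532461, and are coding.
Exon 14: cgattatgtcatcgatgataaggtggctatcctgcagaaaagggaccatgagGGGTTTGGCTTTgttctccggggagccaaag
Exon 15: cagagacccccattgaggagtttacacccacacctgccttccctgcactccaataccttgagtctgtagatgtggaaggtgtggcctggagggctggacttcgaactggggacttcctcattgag
Exon 16: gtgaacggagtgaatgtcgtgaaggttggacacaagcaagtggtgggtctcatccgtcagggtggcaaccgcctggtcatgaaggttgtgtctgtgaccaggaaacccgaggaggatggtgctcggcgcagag

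The samples carried the defining markers of striatum, and single samples also carried markers of neighbouring tissue. Ppp1r1b, which encodes the dopamine-regulated phosphoprotein DARPP-32 of spiny projection neurons, was at 54782, 51212, 51108, 49144 and 39664 normalized counts in WT samples 1 to 5 and at 56593, 48843, 43501, 48638 and 42265 in Shank3-HT samples 1 to 5. The lowest values of the groups were in WT 5 and HT 5. Slc17a7, the vesicular glutamate transporter of cortical projection neurons, was at 1884, 940.2, 2137, 1405 and 7801 in WT and at 1706, 86.5, 6039, 2137 and 467 in Shank3-HT samples. WT 5 and HT 3 were the highest of their groups by a wide margin, and HT 2 and HT 5 were below all WT samples. Neurod6 and Tbr1, transcription factors of the same cortical neurons, had their highest values in WT 5 and HT 3 as well (606 and 407 for Neurod6, 943 and 790.0 for Tbr1), and the summed level of the 48 measured genes of cortical projection neurons was 73388 to 85840.0 in WT and 59998 to 79267 in Shank3-HT samples.

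Choroid plexus genes stood out in HT 5. Ttr, the transthyretin transcript that defines the choroid plexus, was at 8.43, 2.07, 1.93, 839.6 and 24.2 in WT and at 7.15, 839, 199, 41.8 and 62259 in Shank3-HT samples. Of the 33 choroid plexus genes measured, the summed level was 11378 to 13787 in WT and 11509 to 128655 in Shank3-HT samples, the upper end being HT 5, and Sostdc1 was at 0 in WT 1 and WT 2. A further set of genes, which mark fast-firing neurons and the globus pallidus beside the striatum, was high on average in HT 2, HT 3 and HT 5. The mean log2 level of these genes was 0.54, 0.54 and 0.70 above the WT mean there, against 0.035 in HT 1 and 0.0083 in HT 4. The summed level did not separate these samples. It was 110336, 110273, 106336, 98046 and 100397 in Shank3-HT samples 1 to 5 and 83312 to 103577 in WT. Pvalb, the calcium-binding protein parvalbumin, was at 149.6, 92.0, 140.1, 105 and 174 in WT and at 139, 324, 388, 142 and 445 in Shank3-HT samples, and Nefh, the heavy neurofilament, at 603, 599.8, 612, 562 and 665 in WT and 591, 997, 1035, 674 and 1341 in Shank3-HT samples. HT 2, HT 3 and HT 5 lay well above every WT sample for both genes, HT 1 lay within the WT range of both, and HT 4 within that of Pvalb and just above that of Nefh. Counts of most lists are therefore also given without these libraries. The part of these tissues in any single result was not tested, and fewer cells of a type cannot be told apart from less RNA per cell in bulk tissue.

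**Figure D1:**
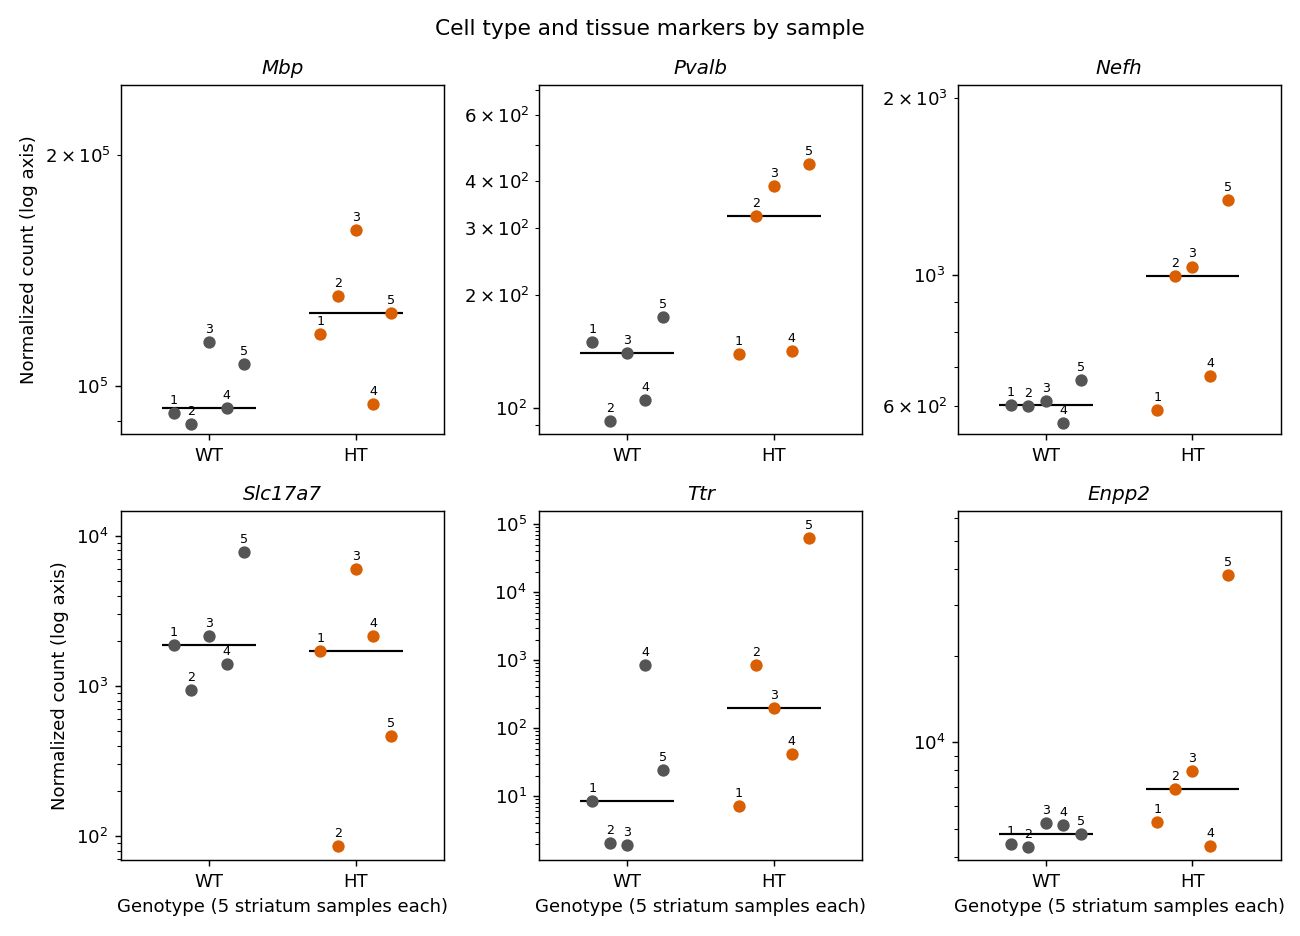
Normalized counts on log axes of Mbp (myelin), Pvalb and Nefh (fast-firing neurons), Slc17a7 (cortical projection neurons), Ttr and Enpp2 (choroid plexus) in the 5 WT and 5 Shank3-HT striatum samples, with the replicate number beside each point and the group median as a line. HT 2, HT 3 and HT 5 lie above all WT samples for Pvalb and Nefh, Slc17a7 is highest in WT 5 and HT 3, and Ttr reaches 62259 in HT 5.

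Shank3 was the only differentially expressed gene (DEG) between Shank3-HT and WT striatum and was downregulated. Shank3 (ENSMUSG00000022623, GRCm38 chr15:89499623-89560261) was at 12189, 12644, 12706, 12739.8 and 11309 normalized counts in WT samples 1 to 5 and at 9243, 9323, 8355, 8746 and 7959 in Shank3-HT samples 1 to 5. The groups did not overlap, and the means were 12317 ± 606 and 8725 ± 581 (SD, n = 5 each), so that Shank3-HT mice held 70.8% of the WT level (p = 0.00794 in a two-sided exact permutation test, which 5 against 5 samples cannot go below). In limma with Benjamini-Hochberg adjustment over all genes tested, the log2 fold change was -0.50 (SE 0.074) with an adjusted p value of 0.0494. This value was close to the threshold of 0.05. Leaving out 1 striatum sample at a time, the call held in 2 of 15 fits (without WT 5 and without HM 5), with adjusted p values of 0.000458 to 0.257 and log2 fold changes of -0.53 to -0.47. With HT 2, HT 3 and HT 5 left out, the log2 fold change was -0.45 and the adjusted p value in limma was 1.

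Shank3 was lower again in striatum with the deletion on both alleles. In Shank3-HM samples 1 to 5, Shank3 was at 6061, 5883, 6242, 5922 and 4569, with a mean of 5735 ± 667 (SD, n = 5), and every one of these samples was below every Shank3-HT sample. The difference of Shank3-HM from Shank3-HT striatum was -0.61 on the log2 scale (adjusted p = 0.00161 in limma), and this call held in all 15 fits that left out 1 sample. The Shank3-HT mean of 8725 was near the midpoint of the WT and Shank3-HM means, 9026. These values cover reads from the whole gene, most of which lies outside the deleted exons, so that they do not count intact transcripts alone.

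**Figure D2:**
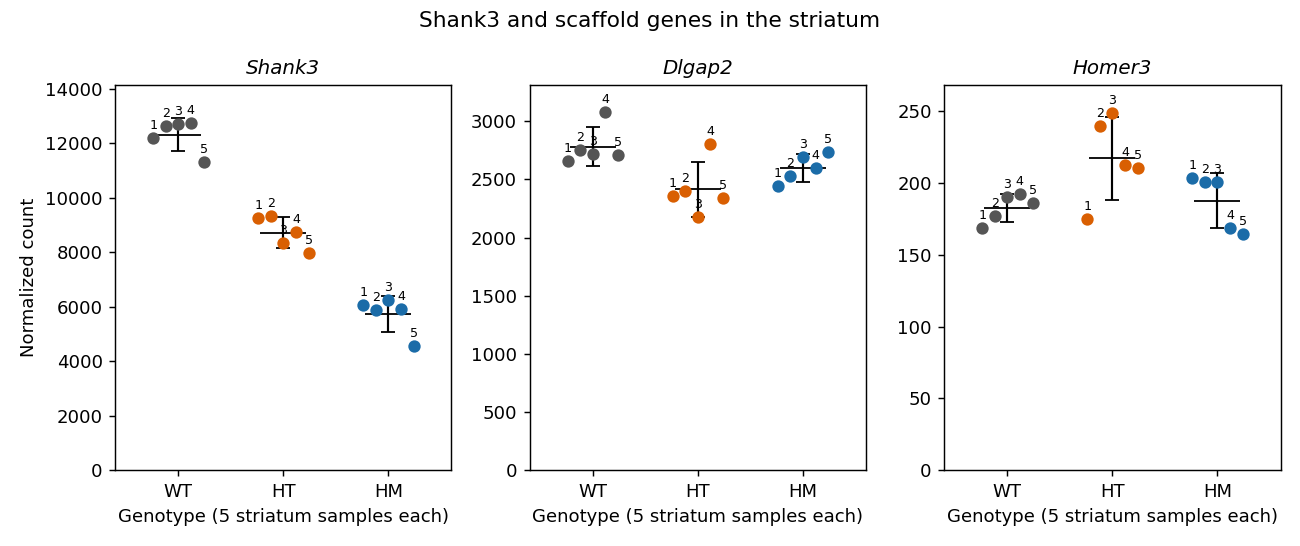
Normalized counts of Shank3, Dlgap2 and Homer3 in the 5 striatum samples of each genotype, with replicate numbers beside the points and bars for the mean ± SD. The 3 genotypes do not overlap for Shank3, whereas the Shank3-HT samples overlap the WT samples for Dlgap2 and Homer3.

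Beyond Shank3, no gene passed the adjusted threshold. DEGs numbered 1 of 16482 genes (0.00607%), and the next smallest adjusted p value was 0.361. At an unadjusted p value under 0.05 there were 1224 genes (7.43%), of which 688 had higher means in Shank3-HT mice (4.17%) and 536 lower means (3.25%). The mean was higher in Shank3-HT mice for 7904 genes (48%), and the median log2 fold change over all genes was -0.0058. All 5 Shank3-HT samples lay above all 5 WT samples for 91 genes (0.552%) and below them for 69 genes (0.419%). With HT 2, HT 3 and HT 5 left out, 470 genes were at an unadjusted p value under 0.05 (2.85%), and 174 of these were among the 1224, which is 37.0% of the smaller and 14.2% of the larger set. That fit called 1.3% of all genes higher and 1.55% lower. Without HT 5 alone, 947 genes were at this level (5.75%, of which 3.1% of all genes were higher and 2.65% lower). Without HT 5 and WT 5 there were 994 (6.03%, with 3.34% higher and 2.69% lower), and without HT 3 and WT 5 there were 1072 (6.5%, with 3.51% higher and 2.99% lower). For the gene groups below, higher and lower refer to unadjusted p values under 0.05 in limma, for which 4.17% and 3.25% of all genes are the background.

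Exo1, Gm2115 and Alox8 were followed because the study lists them beside Shank3 for this comparison, a choice made on the same samples. The study tested for differences with DESeq2, a test of counts that was not applied here. Exo1 (ENSMUSG00000039748, GRCm38 chr1:175880581-175913489), an exonuclease of DNA mismatch repair and recombination, was at 25.2, 45.4, 18.3, 86.1 and 21.6 normalized counts in WT and at 6.14, 13.8, 6.78, 7.13 and 5.95 in Shank3-HT samples. The groups did not overlap and both were low, and the log2 fold change was -1.99 (SE 0.37) with an adjusted p value of 0.361 in limma. Shank3-HM samples had 30.8, 31.4, 27.6, 30.6 and 15.5 normalized counts, within the WT range but for 1 sample below it, and a log2 fold change from WT of -0.32. Gm2115 (ENSMUSG00000097789, GRCm38 chr7:84528954-84583531), a predicted gene, was at 509, 582, 571, 523 and 454 in WT and at 754, 719.5, 747, 577 and 758 in Shank3-HT samples. HT 4 alone lay within the WT range, the log2 fold change was 0.43 (SE 0.084) and the adjusted p value 0.464 in limma, which was 0.0365 without HT 4. Alox8 (ENSMUSG00000020891, GRCm38 chr11:69183932-69197843), a lipoxygenase that oxidizes arachidonic acid, was at 35.8, 37.4, 44.2, 32 and 33.0 in WT and at 66.8, 86.3, 107, 43.9 and 90.7 in Shank3-HT samples, again with HT 4 alone inside the WT range. Its log2 fold change was 1.04, SE 0.23, with an adjusted p of 0.566 in limma, and in Shank3-HM mice Gm2115 and Alox8 had log2 fold changes of -0.062 and -0.18.

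Of the 91 genes higher in every Shank3-HT sample, the 12 with the smallest p values included a secreted signal, an adaptor of mitochondrial transport and several noncoding transcripts. Slc43a3, a purine nucleobase transporter of vessels, was at 15.4, 18.8, 26.9, 18.8 and 18.4 in WT and at 43.3, 35.6, 30.3, 39.6 and 51.6 in Shank3-HT samples, a log2 fold change of 0.99 (SE 0.22). Shh, the secreted signal Sonic hedgehog, was at 47.9, 36.1, 44.4, 37.3 and 36.9 in WT and at 62.9, 82.8, 61.2, 50.1 and 116 in Shank3-HT samples (log2 fold change 0.81), with the highest value in HT 5. Trak2, an adaptor that links mitochondria to kinesin motors, was at 6637, 6985, 7430.0, 7209.6 and 6790.1 in WT and 7788, 11161, 9276, 7628 and 9958 in Shank3-HT samples (log2 fold change 0.37), with the highest values in HT 2, HT 5 and HT 3. Sccpdh, a putative oxidoreductase of lipid droplets, was at 1251, 1096, 1238, 1191 and 1289 in WT and 1537, 1444, 1601, 1351 and 1483 in Shank3-HT samples (log2 fold change 0.29), with HT 4 lowest among the Shank3-HT samples. Pcdh9, a protocadherin adhesion protein, and Tmeff2, a transmembrane protein with follistatin-like domains, had log2 fold changes of 0.23 and 0.24, and Agmo, which cleaves ether lipids, one of 0.50. For the other 5, the log2 fold changes were 0.49 for Atp13a4 (a P-type ATPase that transports polyamines), 0.30 for Nxpe3, 0.57 for the antisense gene Gm26782, 0.87 for the long noncoding gene Gm7598 and 1.03 for the pseudogene Gm3650, whose reads a parent gene could share. HT 4 was the lowest Shank3-HT sample for Shh, Trak2 and Sccpdh, and HT 3 for Slc43a3. The adjusted p value of each of the 12 was 0.566 in limma.

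Of the 69 genes lower in every Shank3-HT sample, the 12 with the smallest p values began with Shank3 and Exo1. Top2a, the topoisomerase of dividing cells, was at 232, 134, 163, 223 and 239 in WT and at 124, 64.4, 96.9, 133 and 70.9 in Shank3-HT samples (log2 fold change -1.03, SE 0.27). HT 4 was the highest Shank3-HT sample and came within 1 normalized count of the lowest WT sample. Ift81, a subunit of the transport complex that builds cilia, was at 706, 671, 648, 598 and 691 in WT and 579, 489, 518, 519 and 569 in Shank3-HT samples (log2 fold change -0.31, SE 0.088). Zfp408 and Zfp1, both zinc finger genes, had narrow ranges, with 326, 356, 339, 331 and 318 against 284, 267, 279, 275 and 277 for Zfp408, and log2 fold changes of -0.27 and -0.25. Simc1, which binds SUMO, and B3gnt5, a glycosyltransferase that starts the lacto-series of glycolipids, had -0.41 and -0.90. Gm8707, a pseudogene, was listed at 0 in HT 1 and HT 5. Acsm5, an acyl-CoA synthetase of mitochondria, was at 31.2, 27.8, 27.3, 26.6 and 29.6 in WT and 15.3, 7.26, 10.2, 25.1 and 14 in Shank3-HT samples. The long noncoding gene Gm6729 and 1700012B09Rik had log2 fold changes of -0.49 and -0.94, and adjusted p values of the 10 genes other than Shank3 and Exo1 were 0.566 each in limma.

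**Figure D3:**
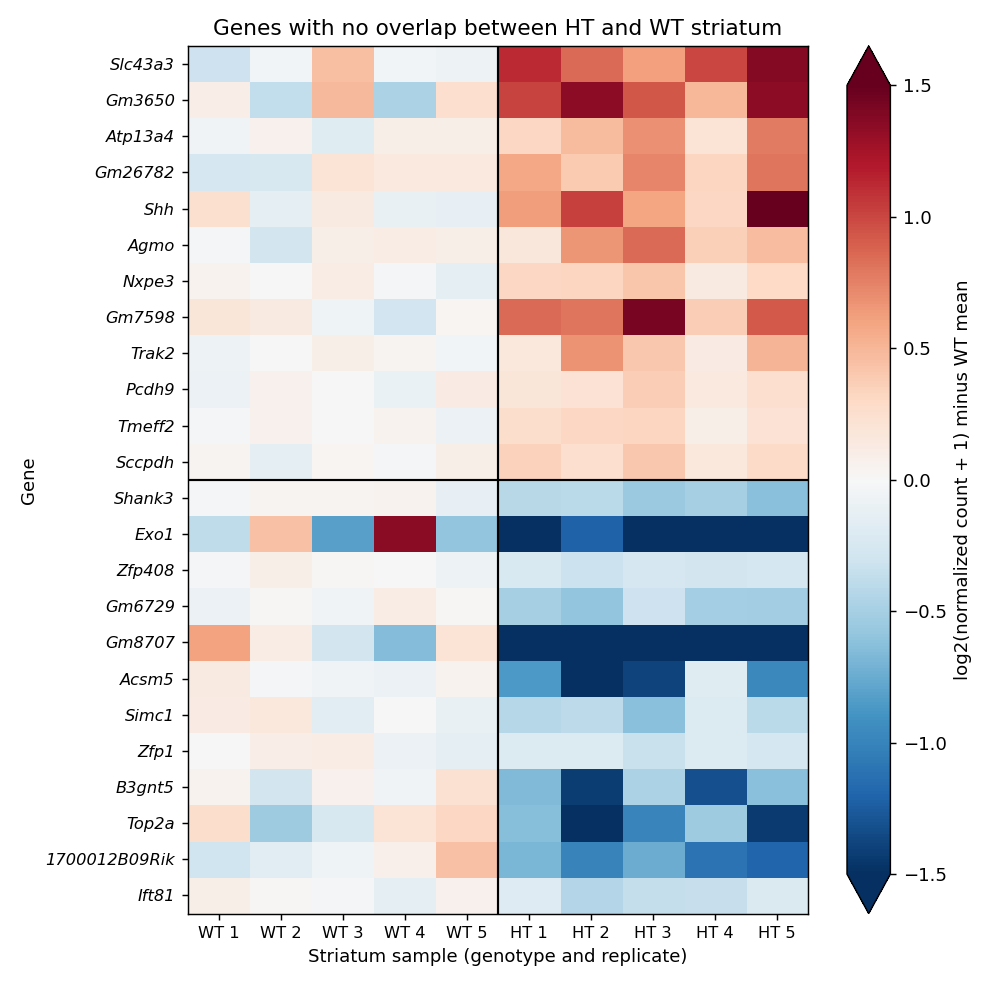
Each cell gives log2(normalized count + 1) minus the mean of the 5 WT samples, for the 12 genes higher (top) and the 12 lower (bottom) in every Shank3-HT sample that had the smallest p values, in WT samples 1 to 5 and Shank3-HT samples 1 to 5. Colours saturate at 1.5 above and below the WT mean. HT 4 is the palest of the Shank3-HT samples for Acsm5 and Trak2, and HT 2 the strongest.

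Of the other scaffolds that bind Shank3 or belong to its family, none passed the adjusted threshold. All 21 genes of this list were measured, of which 1 was higher and 2 were lower, Shank3 included, and the median log2 fold change was -0.016. Shank1 was at 2936, 3488, 3583, 3882 and 5760.5 in WT and at 3102, 3563, 5303, 3628 and 4048 in Shank3-HT samples, with log2 fold change 0.014 (SE 0.16), and its highest values were in WT 5 and HT 3, the samples with the most Slc17a7. Shank2 was at 3530.1, 3614, 3798, 4468 and 4455 in WT and 3460.1, 3946, 4189, 4213 and 4160.4 in Shank3-HT samples, with log2 fold change 0.011 (SE 0.073). Neither relative of Shank3 thus differed by more than the spread between samples. Dlgap2, of the Dlgap family that links Shank proteins to PSD-95, was at 2655, 2750.0, 2721, 3079.8 and 2709.6 in WT and at 2357, 2398, 2176, 2808 and 2339 in Shank3-HT samples (log2 fold change -0.21, SE 0.062, adjusted p = 0.605 in limma). Only HT 4 lay within the WT range of Dlgap2. Homer3, which binds Shank proteins and metabotropic glutamate receptors, was at 169, 177, 189.8, 192 and 186 in WT and 175, 239, 249, 212 and 210.2 in Shank3-HT samples (log2 fold change 0.24, SE 0.10), and 4 of the 5 Shank3-HT samples were above all WT samples. Dlgap3, the family member most associated with striatum, had a log2 fold change of 0.053 (SE 0.076), with 15708, 18524, 17072, 17946 and 15601 in WT and 17850.4, 18382, 16712, 18128 and 16832 in Shank3-HT samples.

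The remaining members of the postsynaptic scaffold were close to their WT levels. Dlg4, which encodes PSD-95, was at 27819 ± 1279 in WT and 27501 ± 1014 in Shank3-HT mice (SD, n = 5 each), for which the log2 fold change was -0.016 (SE 0.051). Its relatives Dlg1, Dlg2 and Dlg3 had log2 fold changes of 0.023, 0.0096 and -0.087. Homer1 and Homer2, which tie Shank proteins to metabotropic receptors, had -0.090 and -0.083. Dlgap1 and Dlgap4 had -0.0077 and -0.038, the Rap regulator Sipa1l1 -0.049, and Sharpin, which binds the ankyrin repeats of Shank proteins, -0.12. The actin partners Abi1, Baiap2, Cttn and Sptan1 had 0.0061, -0.059, -0.054 and 0.022. Each of these differences was smaller than 2 times its standard error.

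Glutamate receptor genes had small differences, of which more were lower than higher. Of 38 measured of 39, 1 was higher (Grm8, 0.32) and 3 were lower, and the median log2 fold change was -0.076 against -0.0058 over all genes. Grid1, a delta receptor subunit of synaptic adhesion, was at 2298, 2609, 2401, 2409.6 and 2224 in WT and at 2280.0, 2040.5, 2142, 2117 and 2043 in Shank3-HT samples (log2 fold change -0.17, SE 0.050), and only HT 1 lay within the WT range. Shisa9, an auxiliary subunit of AMPA receptors, was at 3743, 4049, 3676, 3916 and 3359.8 in WT and 3598, 3139, 2829.9, 3886 and 3069.9 in Shank3-HT samples (log2 fold change -0.19, SE 0.074), and HT 1 and HT 4 lay in the WT range. After HT 2, HT 3 and HT 5 were left out, no glutamate receptor gene was at an unadjusted p value under 0.05 and the median was 0.0026. The higher and lower members numbered 0 and 2 without HT 5, 1 and 5 without HT 5 and WT 5, and 2 and 3 without HT 3 and WT 5. The medians were -0.050, -0.063 and -0.068. In these fits, 3.1%, 3.34% and 3.51% of all genes were higher and 2.65%, 2.69% and 2.99% lower.

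Some genes of the GABA synapse and of transmitter release had higher values in Shank3-HT striatum, and Slc6a11, Syt2 and Vamp1 were highest in HT 2, HT 3 and HT 5, the samples with the most Pvalb. Of the 27 GABA synapse genes, 4 were higher and 1 was lower, with a median of 0.0042. Gabrq, the theta subunit of GABA-A receptors, was at 24.5, 18.0, 25.3, 48.6 and 26.5 in WT and 41.6, 45.3, 26.3, 64.1 and 129.8 in Shank3-HT samples (log2 fold change 0.95, SE 0.34), and Slc6a11, a GABA transporter of astrocytes, at 2232, 2489, 2400.4, 2448 and 2689.7 in WT and 2493, 3689.8, 3313, 2170.4 and 5150.2 in Shank3-HT samples (log2 fold change 0.39). Gabrq did not follow Pvalb, since HT 3 lay within its WT range and HT 4 was second to HT 5. For Slc6a11 the highest samples were HT 5, HT 2 and HT 3. Without HT 5, the log2 fold changes of Gabrq and Slc6a11 were 0.63 and 0.22. Of the 43 genes of transmitter release, 4 were higher and 1 was lower. Syt2, the calcium sensor of fast release, was at 1436, 1606, 1647, 1389 and 1104 in WT and 1844, 2575, 2196, 1448 and 2819 in Shank3-HT samples (log2 fold change 0.57, SE 0.15), and Vamp1, a vesicle fusion protein, at 1129, 952, 992, 978 and 1289.7 in WT and 1109, 1718, 1982, 1021 and 2430.4 in Shank3-HT samples (log2 fold change 0.56, SE 0.18). HT 4 was inside the WT range for both. The higher genes of release numbered 2 without HT 5, 2 without HT 5 and WT 5, and 2 without HT 3 and WT 5, and those of the GABA synapse numbered 2 without HT 5, 2 without HT 5 and WT 5, and 5 without HT 3 and WT 5, and without HT 2, HT 3 and HT 5 no gene of release and 1 of the GABA synapse was at an unadjusted p value under 0.05.

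Few genes of synaptic adhesion and spine actin differed. Of the 40 adhesion genes, 0 were higher and 1 was lower: Cadm3, a cell adhesion protein of axons, with a log2 fold change of -0.11 (SE 0.048), while its relative Cadm1 had -0.19 (SE 0.091). Of the 42 spine actin genes, 1 was higher (Gsn, gelsolin, 0.23, which oligodendrocytes also express) and 3 were lower. Marcks, which couples the membrane to actin, was at 4347, 4243, 3812, 3801 and 4365 in WT and at 3446, 3381, 3306, 4186 and 3364 in Shank3-HT samples (log2 fold change -0.22, SE 0.065), and HT 4 alone was above the lowest WT sample. Cttnbp2 and Dbn1, which bind cortactin and actin in spines, had -0.15 and -0.15. Without HT 5, 2 spine actin genes were higher and 1 was lower. These counts were 0 and 2 without HT 5 and WT 5, and 0 and 2 without HT 3 and WT 5. Without HT 2, HT 3 and HT 5 they were 1 and 0. The lower adhesion genes numbered 0 in each of these fits, and 1 adhesion gene was higher without HT 3 and WT 5.

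Among the markers of spiny projection neurons, only 2 transcription factors differed at an unadjusted p value under 0.05. Of 13 direct-pathway genes, 0 were higher and 0 were lower, and of 10 indirect-pathway genes and 43 genes of both pathways, 0 were higher and 1 and 1 were lower. The D1 receptor Drd1 was at 8943, 8758, 9122, 8948 and 7318 in WT and at 9016, 8955, 7716, 9366 and 7364 in Shank3-HT samples, with a log2 fold change of -0.025 (SE 0.074). The neuropeptides of the direct pathway, Tac1 (substance P) and Pdyn (dynorphin), had -0.072 (SE 0.080) and 0.044 (SE 0.12). The D2 receptor Drd2 was at 8739.8, 9008, 8203, 8569 and 6469 in WT and 8719.7, 8202, 6975, 8229 and 7396 in Shank3-HT samples (log2 fold change -0.048, SE 0.082), the adenosine receptor Adora2a had -0.064 (SE 0.091), and Penk, which encodes enkephalin, -0.17 (SE 0.11). Drd1, Drd2 and Adora2a were lowest in WT 5 among the WT samples, and in HT 3 and HT 5 among the Shank3-HT samples. For none of these 6 markers was the difference larger than 2 times its standard error. Ppp1r1b had -0.035 (SE 0.091).

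The 2 lower spiny neuron genes were Sp9 and Meis2. Without HT 5, 0 shared genes, Meis2 included, were lower at an unadjusted p value under 0.05, and their median was -0.0021. The log2 fold change of Meis2 stayed at -0.22 to -0.11 with any 1 sample left out. Sp9, which is needed for indirect-pathway neurons to form and is also on in young neurons, was at 588, 688, 528, 535 and 542 in WT and at 511, 412, 401, 488 and 472 in Shank3-HT samples. Its groups did not overlap, and the log2 fold change was -0.33 (SE 0.10) (adjusted p = 0.605 in limma). Meis2, a homeobox gene of striatal neurons, had -0.16 (SE 0.076), with 16093, 17355, 15487, 15774 and 13374 in WT and 15055, 13642, 12208, 15409 and 13523 in Shank3-HT samples. In Shank3-HM mice, Sp9 had a log2 fold change from the same WT samples of -0.29 and Meis2 of -0.14. When HT 2, HT 3 and HT 5 were left out, no indirect-pathway gene was at an unadjusted p value under 0.05, and the medians of the direct-pathway, indirect-pathway and shared lists were 0.097, 0.062 and 0.10, against -0.010, -0.049 and -0.038 with all samples. With HT 5 and WT 5 left out they were -0.040, -0.085 and -0.049, with 2 indirect-pathway and 4 shared genes lower. With HT 3 and WT 5 left out, the indirect-pathway median was -0.10, and 3 shared genes were lower and 1 higher.

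Oligodendrocyte and myelin genes had higher means in Shank3-HT striatum, in samples other than HT 4. All 44 genes of this list had higher means in Shank3-HT mice, 29 of them at an unadjusted p value under 0.05, and the median log2 fold change was 0.33. Mbp, the myelin basic protein, was at 92206, 89132, 114023, 93640.0 and 106745 in WT and at 116975, 131043, 159497, 94782 and 124377 in Shank3-HT samples (log2 fold change 0.32, SE 0.13). Mal, a myelin sorting protein, was at 7702, 7051, 10327, 8067 and 8577 in WT and 10180.1, 11747, 13670.0, 8411 and 10994 in Shank3-HT samples (log2 fold change 0.39, SE 0.13, adjusted p = 0.632 in limma). HT 3 was highest and HT 4 lowest among Shank3-HT samples for both genes, and HT 4 lay in the WT range. The other 4 Shank3-HT samples were above every WT sample for Mbp, and all of them but HT 1 for Mal. Apod, a lipid carrier, Mobp, Mog and Cnp, all of myelin, had log2 fold changes of 0.36, 0.35, 0.39 and 0.35. The summed level of the list was 269150.0 to 348047 in WT, 289819 to 481148 in Shank3-HT and 294736 to 442830.0 in Shank3-HM samples. No member was at 0 in any sample.

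Of 19 genes of oligodendrocyte precursors, 1 was higher (Gpr17, a receptor of cells about to mature, 0.17) and 1 lower (Cspg5, a proteoglycan, -0.14), and without HT 5 there were 0 and 0. The log2 fold change of Cspg5 was -0.099 without HT 5, and that of Gpr17 was 0.14 to 0.21 with any 1 sample left out. In the fit without HT 2, HT 3 and HT 5, the median of the oligodendrocyte list was 0.10 and 0 of its genes were higher, with 2 Shank3-HT samples left. The higher members numbered 30 without HT 5, 28 without HT 5 and WT 5, and 9 without HT 3 and WT 5. The median was 0.16 in Shank3-HM striatum, compared with the same WT samples, with 3 genes higher, where 4.02% of all genes were higher and 3.42% lower. It was 0.12 and -0.0016 in Shank3-HT cortex and hippocampus, compared with WT of the same regions.

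Astrocyte genes had higher means too, by smaller amounts. Of 44 genes, 16 were higher and 0 lower, with a median of 0.13. The higher members numbered 9 without HT 5, 7 without HT 5 and WT 5, and 7 without HT 3 and WT 5. Gfap, the intermediate filament of astrocytes in white matter and after injury, was at 859, 1078, 1293, 1016 and 1423 in WT and at 1324, 2010.2, 2960.3, 934 and 2105 in Shank3-HT samples (log2 fold change 0.63, SE 0.27). S100b, a calcium-binding protein of astrocytes that oligodendrocytes also make, was at 2757, 2572, 2877, 2687 and 2619 in WT and 3293, 3620.3, 3666, 2618 and 3243 in Shank3-HT samples (log2 fold change 0.27, SE 0.088). Slc39a12, a zinc transporter, had 0.27 (SE 0.088), and Aqp4, the water channel of astrocyte endfeet, 0.16 (SE 0.064). Agt, angiotensinogen, which astrocytes make in amounts that differ between brain regions, was at 71.4, 64.9, 52.5, 75.6 and 84.0 in WT and at 95.6, 470.3, 259, 73.6 and 767 in Shank3-HT samples, with HT 5, HT 2 and HT 3 above all others. The summed astrocyte level was 270790.0 to 308198 in WT and 287894 to 330730.0 in Shank3-HT samples. In the fit without HT 2, HT 3 and HT 5, the median was 0.047, with no astrocyte gene at an unadjusted p value under 0.05.

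Other cell types of the tissue showed few differences. Microglia genes had 1 of 40 higher (Cd53, a tetraspanin of leukocytes, 0.22), endothelial genes 0 of 35 and mural and meningeal genes 0 of 28, with none lower. Of 24 interneuron genes, 1 was higher, and this was Pvalb (log2 fold change 0.99, SE 0.29). Choroid plexus genes had 2 of 33 higher (Enpp2, autotaxin, 0.86, and Sostdc1, a secreted inhibitor of BMP and Wnt signals, 2.39), and their median was 0.62 with HT 5 and -0.019 without it. Without HT 5, 0 choroid plexus genes were higher, and the log2 fold changes of Enpp2 and Sostdc1 were 0.32 and 1.32. Cortical projection neuron genes had a median of -0.15, with 3 of 48 higher and 2 lower, among them Oprk1, the kappa opioid receptor that striatal neurons express too, at 1477, 1370.0, 1143, 1035 and 1304 in WT and 1052, 679, 796, 1193 and 827 in Shank3-HT samples (log2 fold change -0.49, SE 0.13). The higher cortical genes numbered 1 without HT 5, 1 without HT 5 and WT 5, and 2 without HT 3 and WT 5, and the median was -0.086, -0.029 and -0.13 in these fits. It was -0.013 without HT 2, HT 3 and HT 5.

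Genes of fast-firing and pallidal neurons, a list written after their values were seen and given as a description, were higher for 14 of 25 members with none lower. Gbx1, a homeobox gene, was at 50.7, 57.6, 42.8, 36.7 and 38.1 in WT and at 44.1, 88.9, 94.6, 55.5 and 90.0 in Shank3-HT samples. Esrrg, a nuclear receptor of neurons with high energy use, was at 641, 580.5, 549, 506 and 413 in WT and 653, 862, 774, 598 and 1001 in Shank3-HT samples. Both genes were highest in HT 2, HT 3 and HT 5. The higher members numbered 12 without HT 5, 12 without HT 5 and WT 5, and 12 without HT 3 and WT 5. In the fit without HT 2, HT 3 and HT 5, 0 members were at an unadjusted p value under 0.05. Among 69 potassium channel genes, 7 were higher and 1 lower. The higher channel genes numbered 4 without HT 5, 4 without HT 5 and WT 5, and 8 without HT 3 and WT 5. Kcnab3, the beta subunit of fast voltage-gated channels, was at 254, 217, 194, 183 and 259 in WT and 237, 387, 436, 204 and 515 in Shank3-HT samples (log2 fold change 0.61, SE 0.21). Kcnj10, the potassium channel of glia, had 0.25. Without HT 2, HT 3 and HT 5, 1 potassium channel gene was higher. The part of pallidal tissue in these values was not tested.

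Some genes of DNA replication and cell division had lower values in Shank3-HT striatum. Of 90 genes, 12 were lower and 0 higher, with a median of -0.076, and 24 had higher means. Beside Exo1 and Top2a these included Cenpf, a kinetochore protein, at 68.2, 43.7, 71.5, 57.2 and 62.9 in WT and 36.9, 27.2, 38.1, 49.6 and 28.9 in Shank3-HT samples, Kif11, a spindle motor (-0.54), and Mcm5, Mcm6 and Mcm7 of the replicative helicase (-0.29, -0.25 and -0.19). Mki67, the proliferation marker, was at 202, 132, 224, 210.2 and 193 in WT and 170.2, 155, 125, 141 and 129 in Shank3-HT samples, with overlap of the groups (log2 fold change -0.40, SE 0.21). Several of the 12 had low counts, with a WT mean of 43.6 for Cenpa, while the mean was 436 for Mcm7. The lower replication genes numbered 11 without HT 5, 7 without HT 5 and WT 5, and 10 without HT 3 and WT 5.

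Young neurons of the subventricular zone next to the striatum express some of the same genes. Of 30 genes of neuroblasts and dividing progenitors, a list written after the values were seen, 14 were lower and none higher, with a median of -0.33. Dcx, doublecortin of migrating neuroblasts, was at 963, 894, 948, 1032 and 1319 in WT and at 731, 625, 727, 962 and 753 in Shank3-HT samples (log2 fold change -0.44, SE 0.12), and HT 4 was the only one of these within the WT range. Sox11 and the homeobox genes Dlx1 and Dlx2 of new interneurons had log2 fold changes of -0.29, -0.65 and -0.42, with Dlx1 at 309, 348, 439, 562 and 768 in WT and 325, 211, 273, 354 and 326 in Shank3-HT samples. Dlx1, Dlx2, Dcx and Sox11 were highest in WT 5. After HT 2, HT 3 and HT 5 were left out, the median of the neuroblast list was -0.20 and that of the replication list -0.047, with 0 neuroblast genes lower and 1 higher, and 3 replication genes lower. The lower neuroblast genes numbered 10 without HT 5, 8 without HT 5 and WT 5, and 6 without HT 3 and WT 5. Whether the dissections held different amounts of subventricular tissue was not tested.

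Genes of motile cilia, which the ependymal cells of the ventricle wall carry, had lower means for most members. Of 62 genes, 15 had higher means in Shank3-HT mice, 6 were lower and 1 higher at an unadjusted p value under 0.05, and the median was -0.21. Spag6l, of the central pair of the axoneme, was at 242, 212, 211, 179 and 229 in WT and at 164, 121, 137, 178 and 213 in Shank3-HT samples (log2 fold change -0.42, SE 0.14). Dnah11, a dynein heavy chain, was at 91.1, 57.9, 79.2, 51.4 and 122 in WT and 36.8, 27.8, 59.9, 30.9 and 75.0 in Shank3-HT samples (log2 fold change -0.82, SE 0.31). Foxj1, the transcription factor that switches on motile cilia, was at 285, 226, 359, 481 and 454 in WT and 425, 372, 334, 327 and 559 in Shank3-HT samples (log2 fold change 0.19, SE 0.20) and was not lower. HT 5, the sample with choroid plexus genes, was the highest of its group for Spag6l, Dnah11 and Foxj1, and without it 11 ciliary genes were lower and the median was -0.37. Without HT 2 the median was -0.12. With HT 3 and WT 5 left out, 4 were lower and the median was -0.090, and with HT 2, HT 3 and HT 5 left out, 4 were lower and the median was -0.14. The summed level of the list was 7108 to 10455 in WT and 7026 to 10626 in Shank3-HT samples, and that of the choroid plexus list is given above.

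**Figure D4:**
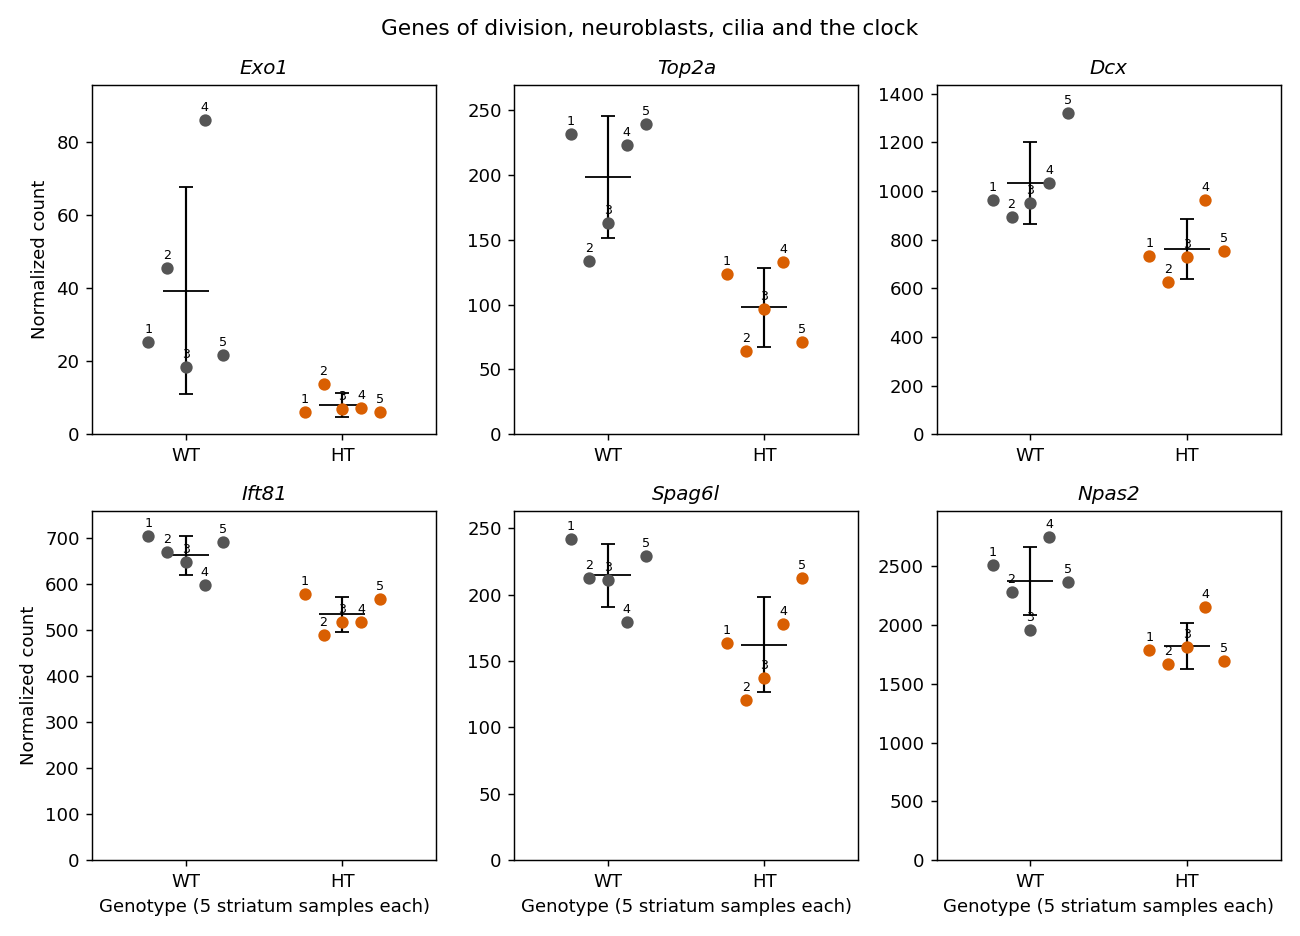
Normalized counts of Exo1, Top2a, Dcx, Ift81, Spag6l and Npas2 in the 5 WT and 5 Shank3-HT striatum samples, with replicate numbers and bars for the mean ± SD. The groups do not overlap for Exo1, Top2a and Ift81, while HT 4 for Dcx, HT 5 for Spag6l and HT 4 for Npas2 reach into the WT range.

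The housekeeping groups had medians within 0.1 of 0 on the log2 scale. Cytosolic ribosome genes had a median of 0.040, with 1 of 79 higher (Rps12, 0.17, SE 0.076) and none lower, although 62 had higher means. The summed ribosomal level was lowest in WT 2, without which the median was 0.0010. Respiratory chain and ATP synthase genes had a median of 0.070, with 3 of 76 higher and none lower. Ndufa8, a subunit of complex I, was at 1348, 1125, 1220.4, 1177 and 1323 in WT and at 1379, 1371, 1309, 1400.2 and 1344 in Shank3-HT samples (log2 fold change 0.14, SE 0.056), and Atp5j, of the ATP synthase, had 0.10. Mitochondrial ribosome genes had 1 of 77 higher (Mrps22, 0.19) and 1 lower (Mrps30, -0.22). Spliceosome genes had 0 of 126 higher and 4 lower, with a median of -0.020. Srsf11, a splicing factor, was at 5791, 6111, 6389, 5572 and 5468 in WT and 4692, 5438, 5619, 5457 and 5227 in Shank3-HT samples (log2 fold change -0.15, SE 0.054), and Hnrnpu, a nuclear RNA-binding protein, had -0.12. With all samples, the shares of these lists called higher or lower were below the background of all genes, while 62 of 79 ribosomal and 69 of 76 respiratory genes had higher means. This did not hold in each alternative. The respiratory genes called higher numbered 7 without HT 5, 4 without HT 5 and WT 5, and 2 without HT 3 and WT 5, the cytosolic ribosome genes 4 without HT 5, 6 without HT 5 and WT 5, and 2 without HT 3 and WT 5, and the mitochondrial ribosome genes 1 without HT 5, 2 without HT 5 and WT 5, and 4 without HT 3 and WT 5, against 3.1%, 3.34% and 3.51% of all genes, and none of these lists had a lower member there. Lower spliceosome genes numbered 2 without HT 5, 2 without HT 5 and WT 5, and 4 without HT 3 and WT 5.

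Extracellular matrix genes had 10 of 109 higher and 3 lower, with a median of 0.091. Sparcl1, a matrix protein that astrocytes secrete, was at 24314, 29534, 28091, 27043 and 28974 in WT and at 28589.9, 34614, 34624, 26794 and 38416 in Shank3-HT samples (log2 fold change 0.23, SE 0.084), and the laminin Lama3 had 0.26 (SE 0.094). Adamts4, a protease that is also on the oligodendrocyte list, had 0.38, Sparc 0.49 and the metalloprotease Mmp2 0.51. The members that were lower included Col6a1 (-0.29) and Fbn2 (-0.44), a collagen and a fibrillin. The higher matrix genes numbered 5 without HT 5, 5 without HT 5 and WT 5, and 8 without HT 3 and WT 5, the lower ones 3 without HT 5, 2 without HT 5 and WT 5, and 2 without HT 3 and WT 5, and without HT 2, HT 3 and HT 5 there were 0 higher and 2 lower, with a median of -0.045.

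Genes that respond to hormones, activity and time of day were compared as well. Of 34 glucocorticoid-induced genes, 5 were higher and none lower (median 0.13), against 12 in Shank3-HM striatum (median 0.22, same WT samples). The Shank3-HT count was 1 without HT 5, 1 without HT 5 and WT 5, and 2 without HT 3 and WT 5, and it was 0 without HT 2, HT 3 and HT 5, where the median was -0.041. Tob2, a regulator of mRNA decay, was at 755, 839.8, 638, 785 and 828 in WT and at 952, 979, 919, 839 and 1057 in Shank3-HT samples, with HT 4 alone in the WT range (log2 fold change 0.31, SE 0.081), and Sult1a1, a sulfotransferase, had 0.33 (SE 0.14). Activity-regulated genes had 1 of 52 higher (Atf3, a stress-induced transcription factor, 0.59, SE 0.26) and none lower, and the higher genes numbered 0 without HT 5, 3 without HT 5 and WT 5, and 3 without HT 3 and WT 5. Of 24 clock genes, Npas2 alone was lower. Npas2, the partner of Bmal1 in forebrain neurons, was at 2510.2, 2282, 1960.0, 2747 and 2370.3 in WT and at 1784, 1669, 1814, 2151 and 1696 in Shank3-HT samples (log2 fold change -0.38, SE 0.098, adjusted p = 0.566 in limma), and HT 4 was the only sample of its group within the WT range. The lower clock genes numbered 1 without HT 5, 1 without HT 5 and WT 5, and 1 without HT 3 and WT 5.

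Among eicosanoid genes, 3 of 33 were higher, namely Alox8, Ptgs1 (a cyclooxygenase, 0.36, SE 0.14) and Cyp4f14 (0.24), and none was lower. The higher eicosanoid genes numbered 2 without HT 5, 1 without HT 5 and WT 5, and 2 without HT 3 and WT 5. Of 26 neuropeptide genes, Crh (corticotropin-releasing hormone) was higher, at 12.3, 21.9, 15.1, 31.4 and 19.4 in WT and 23.9, 38.9, 21.6, 34.5 and 46.2 in Shank3-HT samples (log2 fold change 0.71, SE 0.32), with overlap of the groups, and the higher neuropeptide genes numbered 0 without HT 5, 1 without HT 5 and WT 5, and 5 without HT 3 and WT 5. The neighbours of Shank3 on chromosome 15 had 2 of 29 higher and 1 lower, and the lower neighbours numbered 3 without HT 5, 2 without HT 5 and WT 5, and 1 without HT 3 and WT 5. Ppp6r2, a regulatory subunit of protein phosphatase 6 at chr15:89211553-89287010, was at 3148, 3569, 2542, 2507 and 2964 in WT and at 2459.7, 2506, 2528, 2479 and 2449 in Shank3-HT samples (log2 fold change -0.23, SE 0.081), and Selenoo, a selenoprotein at chr15:89089084-89100340, had 0.16 (SE 0.066). When HT 2, HT 3 and HT 5 were left out, none of the eicosanoid, neuropeptide or neighbouring genes was at an unadjusted p value under 0.05.

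**Figure D5:**
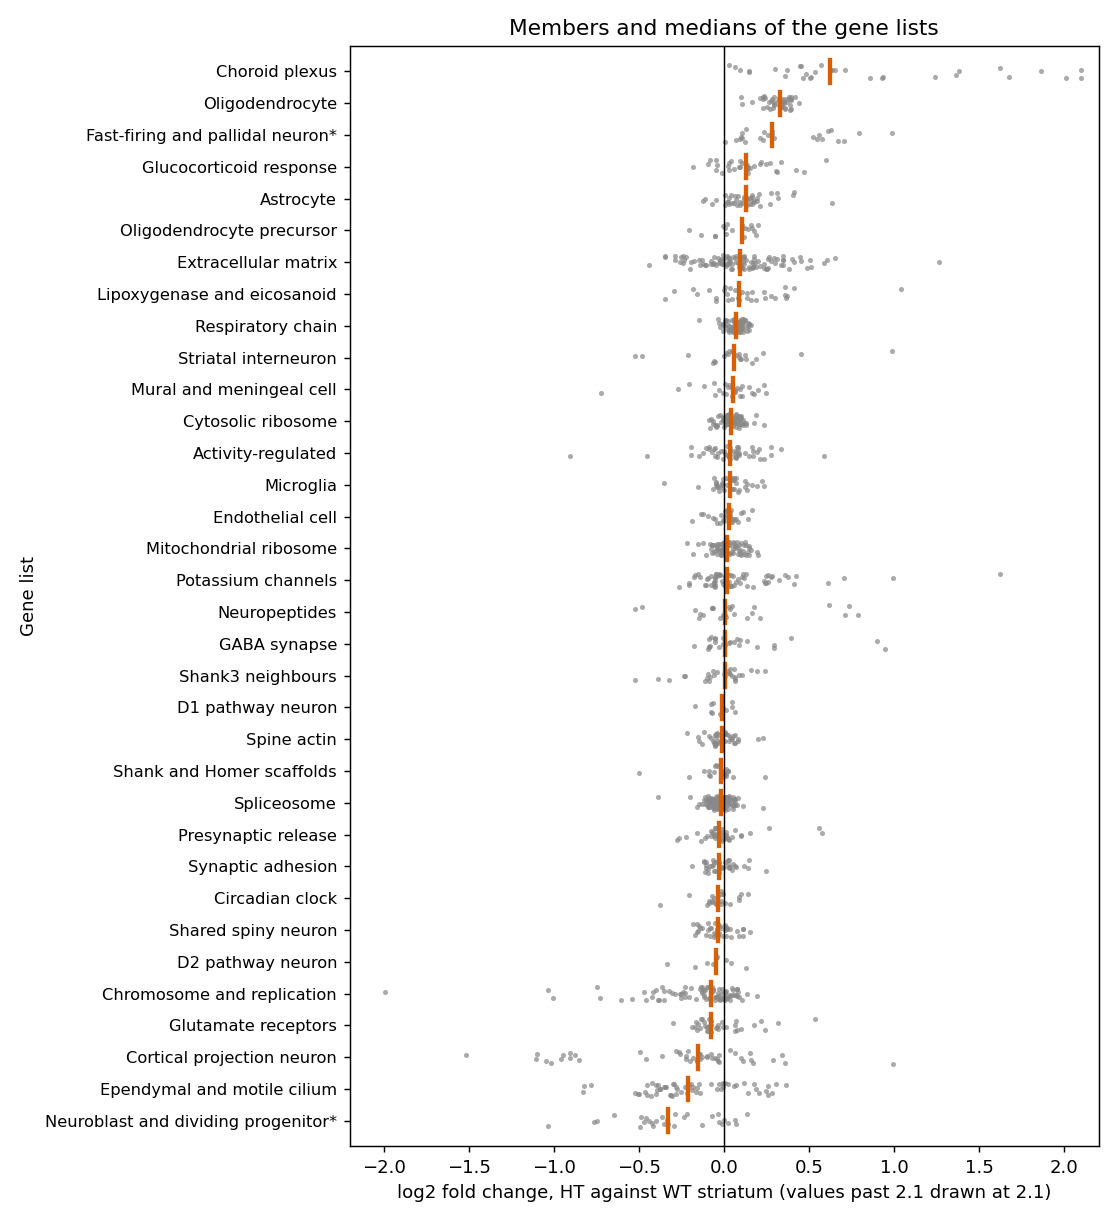
Log2 fold changes between Shank3-HT and WT striatum of the members of each gene list (points) with the list median (bar), ordered by median. Asterisks mark lists written after the values were seen, and values past 2.1 are drawn at 2.1. The medians run from -0.33 for neuroblast genes to 0.62 for choroid plexus genes, the latter resting on HT 5, and the oligodendrocyte points all lie above 0.

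The effect of the heterozygous deletion was then set beside that in the cortex and hippocampus of Shank3-HT mice, each against WT samples of its region. In a limma fit of all 9 groups with 16708 genes, Shank3 had log2 fold changes of -0.50 in striatum, -0.38 in cortex and -0.43 in hippocampus (SE 0.064 each). The striatal change exceeded the others by 0.12 and 0.066 in size, which was less than 2 times the standard error of 0.090. Shank3 was at 6985 to 8717 in WT and 5748 to 6607 in Shank3-HT cortex, so that the groups did not overlap there either. No gene differed between the striatal and cortical effects at an adjusted p value under 0.05 in limma, with 578 at an unadjusted p value under 0.05 (3.46%), and none between the striatal and hippocampal effects, with 935 (5.6%).

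Npas2 had the smallest p value for the difference between the striatal and hippocampal effects among the genes named here, though not the largest difference, with -0.38 in striatum and 0.25 in hippocampus (adjusted p of the difference = 0.120 in limma). This fit treats the 45 samples as independent, while the regions may have come from the same mice. With samples of the same genotype and number taken as 1 mouse, the difference for Npas2 was -0.63 with an adjusted p of 0.0295 in limma, and it was the only gene past the threshold. Exo1 had -0.23 in cortex and -0.41 in hippocampus, Alox8 0.073 and 0.21, and Gm2115 0.12 and -0.0039. Nxpe3 and Tmeff2, which were higher in every Shank3-HT striatum sample, had 0.025 and 0.015 in cortex. Slc43a3 had -0.98 in cortex, opposite to its striatal value, but this difference did not pass the adjusted threshold.

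The 9-group fit, added after the values were seen, takes its spread from all 45 samples and called 11 DEGs in Shank3-HT striatum (0.0658%), of which Shank3 was lower and 10 were higher. These were Zbtb7b, a zinc finger transcription factor, Alox8, Esrrg, Agt, Gm26782, Ldoc1, Bcat1, Htr7, Trak2 and Nefh. Zbtb7b was at 293, 310.4, 394, 349.5 and 368 in WT and at 439.9, 577, 557, 369 and 563 in Shank3-HT samples, Htr7, a serotonin receptor, at 43.7, 40.3, 36.7, 29.8 and 68.7 in WT and 61.9, 79.8, 63.8, 55.6 and 116 in Shank3-HT samples, and Bcat1, an aminotransferase of branched-chain amino acids, at 1232, 1107, 1165, 1195 and 1275 in WT and 1361, 1682, 1835, 1121 and 1825 in Shank3-HT samples. HT 4 lay within the WT range for Zbtb7b, Htr7, Esrrg, Agt and Bcat1, and the other 4 Shank3-HT samples were above it for Zbtb7b, Esrrg, Agt and Bcat1. Ldoc1 was below the minimum mean in the striatal fit.

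The comparisons of Shank3-HT and Shank3-HM striatum share their WT samples, so that their values are set side by side only. Shank3-HM against WT gave 30 DEGs (0.182%), and Shank3-HM against Shank3-HT gave 23 (0.14%), with 6.49% of genes at an unadjusted p value under 0.05. The log2 fold change of Tmeff2 was 0.24 for the heterozygous and 0.10 for the homozygous deletion, that of Atp13a4 0.49 and -0.13, and that of Nxpe3 0.30 and 0.26. Lamp5, a membrane protein of some interneurons and cortical cells, had 0.17 and 0.53 (adjusted p = 0.00178 in limma for the latter), at 3153, 3020.2, 2901, 2955 and 2496 in WT, 3503, 3432, 3000.5, 3368 and 3001 in Shank3-HT and 4434, 4004, 4487, 4143 and 3843 in Shank3-HM samples. Among these genes, Shank3 and Lamp5 had a Shank3-HT mean between those of the other genotypes. Tmeff2, Atp13a4, Nxpe3, Alox8 and Gm2115 had their larger difference from WT in heterozygotes, by little for Nxpe3. The latter were named for their Shank3-HT values in these samples, which favours that order, so that nothing is read from it about dosage.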

How the data were processed

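RNA of cortex, hippocampus and striatum was sequenced by the authors as stranded mRNA libraries, with 5 samples per region for each of 3 genotypes. The deposited values (signal, not whole reads) are normalized counts, for which the authors used Salmon 1.1.0 with GC bias correction on GRCm38, tximport and DESeq2 1.26.0 in R 3.6.2, with versions per the labels' processing notes, over all 45 samples. The study's methods name later versions of R and DESeq2, and which ones made these values was not settled. No single step per sample recovered whole reads: 13.4% to 33.3% of values lay within 0.05 of whole multiples in striatum samples, where 10% would by chance. Tests of counts were therefore not applied and counting error was not computed. P values measure the spread between these samples, each of which the labels name as a separate replicate. Gene symbols came from reference gene names, GENCODE vM21 and RefSeq in that order, which named 18120 of the 18135 identifiers.

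Values were taken as log2(value + 1), so that folds of low genes are understated. Genes averaging 10 or more over the 15 striatum samples were fitted with limma 3.58.1 (lmFit, eBayes with intensity trend) in R 4.3.3 over the 3 genotypes, with Benjamini-Hochberg adjustment and a threshold of 0.05. Differences between regions were tested in 1 fit of 9 groups. The procedure was checked on simulated data. Standard errors are from these fits. Python 3.11.15, pandas 2.3.3, scipy 1.17.1 and matplotlib 3.10.9 were used.

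Named are the DEGs, the genes the study lists for this comparison, the 12 higher and 12 lower genes with the smallest p values whose groups do not overlap, all scaffold genes, the 2 members with the smallest p value of every other list, and tissue markers. Other genes were chosen after their values were seen. A few genes this rule names are not reported here. The members and the 32 lists, written from general knowledge, were chosen with earlier results of these data known, and 2 further lists after the values were seen. Numbers shared between groups were not taken as pairs. Alternatives were no intensity trend, quantile normalization, no filter, a minimum mean of 100, 0.1 as pseudocount, the replicate number as a block, 2 groups alone and each sample left out. Added after seeing the data were the fits without HT 5 and WT 5, without HT 3 and WT 5, without HT 2, HT 3 and HT 5, and with 9 groups. The authors' comparison tables and enrichment sets gave no values here and served only to pick the genes the study lists.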

Additional observations from a re-analysis of the deposited data

Results flagged for a closer look

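Among 340 groups of 5 samples examined, from 136 genes and 34 gene lists in WT and in Shank3-HT striatum, 33 had a highest or lowest sample far from the other 4, with a gap above 0.71 of the group's range. Chance alone gives about 1 in 20 such groups, and the groups share samples.

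Cortical genes set WT 5 apart, with 7801 normalized counts of Slc17a7, 606 of Neurod6 and 943 of Tbr1, and HT 3 with 790.0 of Tbr1. In WT 5, Homer2 (974), Sharpin (828) and Sox11 (748) were also highest, and Drd1 (7318) and Adora2a (7746) lowest. The summed levels of 4 lists were lowest in WT 5 as well, at 690179 for genes of both kinds of spiny neuron, 329471 for the spliceosome, 58367 for replication genes and 153410 for potassium channels.

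Choroid plexus genes set HT 5 apart, with 62259 normalized counts of Ttr, 38085 of Enpp2, 2971 of Kl, which encodes klotho, 453 of Folr1, a folate receptor, and 334 of Sostdc1, and a summed level of 128655 for the list. Bsg (9247), which encodes basigin, was also highest in HT 5, and Cspg5 (5345), Rps12 (2185) and the potassium channel sum (152223) were lowest. In WT 4, Ttr (840), Kl (124), Dlgap2 (3080) and Gabrq (48.6) were highest.

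Single values elsewhere were Exo1 at 13.8 in HT 2, Gm2115 at 577 and Marcks at 4186 in HT 4, Mrps22 at 288 in HT 3, and Atf3 at 31.2 and a respiratory chain sum of 209321 in WT 1.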

How the results depend on the processing

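The Shank3 decrease kept its direction under every alternative run. Its adjusted p value in limma missed the threshold without the intensity trend (0.177), with no filter (0.0504), with a pseudocount of 0.1 (0.0511), without HT 5 and WT 5 (0.193), without HT 3 and WT 5 (0.208) and without HT 2, HT 3 and HT 5 (1). The log2 fold change was -0.50, -0.50, -0.50, -0.50, -0.51 and -0.45 in these fits, which left 0 DEGs each (1158, 1305, 1217, 994, 1072 and 470 genes reached an unadjusted p value under 0.05), and -0.53 to -0.47 with 1 sample left out. With 9 groups there were 11 DEGs, 10 of them higher. Leaving out 1 sample gave 0 to 2 DEGs (0 to 2 higher, 0 to 1 lower), the 2 being Gm2115 and Car14 without HT 4. The genes at an unadjusted p value under 0.05 numbered 830 to 1800 (472 to 968 higher, 358 to 832 lower, the highest without HT 4), and without HT 2, HT 3 and HT 5 470, with 214 higher and 256 lower; the fewer samples alone lower such a count. The larger Shank3 decrease in Shank3-HM than in Shank3-HT striatum ran from -0.64 to -0.53 with 1 sample left out.

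The difference of the striatal from the cortical effect gave 0 genes in every fit with a sample left out, and that from the hippocampal effect 0 to 2 (Npas2 without WT 3, and Npas2 and A830036E02Rik without HT 4). With the samples of 1 genotype and number in the 3 regions taken as 1 mouse, as a replicate block, it gave 1 gene, Npas2 (adjusted p = 0.0295 in limma). For the replicate block in striatum, same-numbered Shank3-HT and WT samples had correlations of -0.019 to 0.11 and 3 of 5 Shank3-HT samples correlated best with their own number. The block gave 1 DEG, Shank3 (adjusted p = 0.00342), and an unadjusted p value under 0.05 for 1510 genes (868 higher, 642 lower).

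Some log2 fold changes turned sign. Without HT 2, HT 3 and HT 5 these were Shank1 (-0.19), Shank2 (-0.050), Homer1 (0.098), Dlgap4 (0.0071), Dlg2 (-0.038), Baiap2 (0.068), Penk (0.037), Arpp21 (0.026), Drd1 (0.097), Tac1 (0.11), Drd2 (0.057), Adora2a (0.11), Ppp1r1b (0.10), Neurod6 (0.027), Folr1 (-1.04), Kl (-0.086), Slc6a11 (-0.073) and Gfap (-0.0049). Without HT 5 and WT 5 they were Homer2 (0.046), Dlgap1 (0.11), Dlg2 (-0.012), Abi1 (-0.015) and Folr1 (-0.51), without HT 3 and WT 5 Homer2 (0.020), Dlg1 (-0.0035), Dlg2 (-0.020) and Abi1 (-0.018), and with quantile normalization Dlg2 (-0.0010). With 1 sample left out, ranges that crossed 0 were -0.10 to 0.16 for Shank1, -0.029 to 0.062 for Shank2, -0.14 to 0.072 for Homer2, -0.11 to 0.090 for Dlgap1, -0.019 to 0.049 for Dlg1, -0.029 to 0.056 for Dlg2, -0.034 to 0.0019 for Dlg4, -0.042 to 0.033 for Abi1, -0.0013 to 0.047 for Sptan1, -0.082 to 0.025 for Drd1, -0.044 to 0.16 for Pdyn, -0.11 to 0.0083 for Ppp1r1b and -0.82 to 0.91 for Folr1. None of these genes passed the adjusted threshold in any of these fits. The cause was not tested. Depth limits the low genes, such as Exo1, by an unknown amount.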

Other observations

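HT 1 and HT 4, the 2 Shank3-HT samples without raised Pvalb, had Shank3 levels of 9243 and 8746, within the range of the other Shank3-HT samples. The summed level of the fast-firing and pallidal list was 110336 in HT 1 and 98046 in HT 4, against 83312 to 103577 in WT. Whether Shank3 varied with pallidal tissue was not tested. Car14, a membrane carbonic anhydrase chosen after its values were seen, had a log2 fold change of 0.79 without HT 4 (adjusted p = 0.0365 in limma).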
